A study of Zea mays with 6 samples.

Results

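Genes of the secondary cell wall were followed through leaf RNA sequencing of maize (Zea mays): the cellulose synthases cesa10, cesa11 and cesa12 and the COBRA-like gene brittle stalk2 (bk2). They were selected by identifier, as Zm00001d032776 (cesa10), Zm00001d043477 (cesa11), Zm00001d020531 (cesa12) and Zm00001d047276 (bk2), and are 4 of the 44320 genes in the table. The pairing of identifiers with names came with the selection. Neither the table nor the RefSeq gene list used here (Zm-B73-REFERENCE-NAM-5.0) holds that pairing, although the RefSeq list contains genes under all 4 names. All 4 genes reached 1 TPM (transcript abundance scaled by transcript length, as a share of the library in parts per 1000000) in at least 3 of 6 libraries and were among the 20990 genes tested.

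The series compared leaves of wild-type plants (WT, 3 libraries) with leaves of a single line labelled as a ZmGA20ox3 knockout (KO1, 3 libraries). ZmGA20ox3 encodes an enzyme in the synthesis of gibberellins, hormones that promote stem elongation, and the comparison asks which leaf transcripts differ in the edited plants. All 6 samples carry the cultivar label KN5585 and a label of normal growth, whereas the growth protocol writes KN5855 for the wild-type line. Plants were grown in a greenhouse and sampled at stage V8 of vegetative growth. The sources used here do not give which leaf, which part of the blade or how many plants went into each library, nor the form of the edit. The level of ZmGA20ox3 and the markers of leaf cell types were not analysed here, because no identifier in the table could be paired with their names.

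Plant cells that have stopped expanding, such as those of xylem vessels and fibres, lay down a secondary wall inside the primary wall. Its cellulose is spun at the plasma membrane by a complex of cellulose synthase (CESA) subunits, and the secondary wall uses subunits other than those of the growing primary wall. In maize, cesa10, cesa11 and cesa12 encode the subunits of that secondary wall complex. bk2 encodes a COBRA-like protein, of a family anchored at the outer face of the plasma membrane, and maize plants that lack it have brittle stalks and leaves with less cellulose. In a leaf, the veins and the fibre strands beside them hold most of the cells with secondary walls. In bulk tissue, more cells of such a type and more RNA per cell cannot be told apart.

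The 3 cellulose synthase transcripts were about 11-fold to 12-fold higher in KO1 leaves by group means, but they also varied widely within each genotype. By group medians the ratios were 20.7 for cesa10, 16.8 for cesa11 and 16.2 for cesa12. Single libraries moved the ratio of means by over 1.5 times: without WT replicate 2 it was 37.3 for cesa10, 30.9 for cesa11 and 20.9 for cesa12, and without KO1 replicate 2 it was 6.91, 7.61 and 6.54 for the same genes. cesa11 and cesa12 rose past the threshold, by a narrow margin, and cesa10 lay just outside it. bk2 was much more abundant than the cellulose synthases in WT and did not pass the test. So 2 of the 4 genes were called higher in KO1, where 9.87% of all tested genes were called higher (15.7% in either direction), and 3 of 4 had groups that did not overlap with KO1 on top, which held for 22.9% of all tested genes. The median log2 difference (KO1 minus WT, on the log2(TPM + 1) scale) was 3.11 over the 4 genes and 0.05 over all tested genes.

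cesa10, a secondary wall cellulose synthase subunit, had 0.46, 10.53 and 2.33 TPM in WT replicates 1, 2 and 3. In KO1 replicates 1, 2 and 3 it had 13.09, 94.68 and 48.24 TPM. The lowest KO1 library lay above the highest WT library by a factor of only 1.24, so the groups did not overlap but came close. Group means were 4.44 ± 5.36 TPM in WT and 52.0 ± 40.9 TPM in KO1 (SD, n = 3 each), an 11.7-fold ratio. The log2 difference was 3.40 with a standard error (SE) of 0.93 and a 95% interval of 1.18 to 5.63. It missed the threshold (limma adjusted p = 0.054), while its unadjusted limma p was 0.0089.

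cesa11, a second subunit of the complex, had 0.46, 10.66 and 3.37 TPM in WT replicates 1, 2 and 3. Its levels in KO1 replicates 1, 2 and 3 were 16.77, 104.27 and 56.70 TPM. WT replicate 1 was again the lowest library and KO1 replicate 2 the highest, and the lowest KO1 value was 1.57 times the highest WT value. Means were 4.83 ± 5.25 TPM in WT and 59.2 ± 43.8 TPM in KO1 (SD, n = 3 each), a 12.3-fold ratio. KO1 was higher in 9 of 9 comparisons of a KO1 with a WT library, as for cesa10 and cesa12, which only restates that the groups did not overlap. cesa11 rose by 3.50 on the log2(TPM + 1) scale (SE 0.90, 95% interval 1.34 to 5.66, limma adjusted p = 0.046).

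cesa12, the remaining subunit, was the least abundant of the cellulose synthases in 5 of 6 libraries. It had 1, 5.14 and 1.68 TPM in WT replicates 1, 2 and 3. KO1 replicates 1, 2 and 3 had 6.81, 50.11 and 27.29 TPM. The groups did not overlap, with the lowest KO1 value 1.32 times the highest WT value. Means were 2.61 ± 2.22 TPM in WT and 28.1 ± 21.7 TPM in KO1 (SD, n = 3 each), a 10.8-fold ratio. cesa12 rose by 2.81 on the log2(TPM + 1) scale (SE 0.74, 95% interval 1.03 to 4.58, limma adjusted p = 0.049).

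bk2, the COBRA-like gene, had 66.59, 49.37 and 47.89 TPM in WT replicates 1, 2 and 3. In KO1 replicates 1, 2 and 3 it had 38.21, 138.90 and 79.91 TPM. KO1 replicate 1 was the lowest of all 6 libraries and KO1 replicates 2 and 3 the highest, so the groups overlapped. The means of 54.6 ± 10.4 TPM in WT and 85.7 ± 50.6 TPM in KO1 (SD, n = 3 each) differed by less than the SD within KO1. The log2 difference was 0.47 (SE 0.45, limma adjusted p = 0.49), and its 95% interval, -0.59 to 1.54, holds both no change and a rise of over 2-fold.

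**Figure D1:**
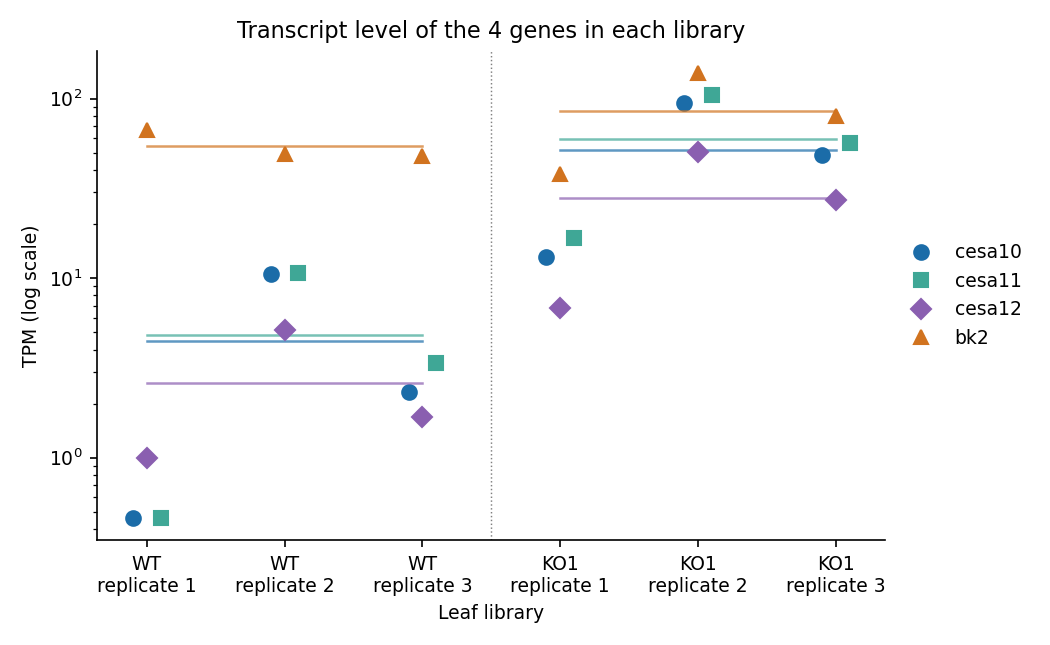
Level of each gene in each leaf library, in TPM on a log axis; markers are single libraries and horizontal lines are the means of the 3 libraries of a genotype, with cesa10 and cesa11 set slightly apart sideways. The cellulose synthases run from 0.46 TPM in WT replicate 1 to 104.27 TPM in KO1 replicate 2, whereas bk2 stays between 38.21 and 138.90 TPM.

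The calls of cesa11 and cesa12 were lost in most fits that left out a single library. Such fits also have less replication, so a lost call need not come from the values of the library left out. Without WT replicate 3, for example, the log2 difference of cesa11 was 3.53, against 3.50 over all 6 libraries, yet the call was lost. Without WT replicate 1, 2 or 3, the limma adjusted p of cesa11 was 0.106, 0.028 and 0.132. Without KO1 replicate 1, 2 or 3 it was 0.052, 0.115 and 0.103, so it stayed past the threshold only when WT replicate 2 was left out. For cesa12 the limma adjusted p was 0.133, 0.044 and 0.150 without WT replicate 1, 2 or 3. It was 0.028, 0.110 and 0.110 without KO1 replicate 1, 2 or 3, so the call held without WT replicate 2 or KO1 replicate 1. cesa10, not called over all 6 libraries, passed without WT replicate 2 (limma adjusted p = 0.029). The direction held in each of these fits: the log2 difference of cesa10 ran from 2.71 to 4.20, that of cesa11 from 2.74 to 4.24 and that of cesa12 from 2.21 to 3.57. For bk2 it ran from 0.03 without KO1 replicate 2 to 0.95 without KO1 replicate 1. The count of genes called over the whole table moved too, from 3301 to between 778 and 2929, which shifts the adjusted p of each gene.

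**Figure D2:**
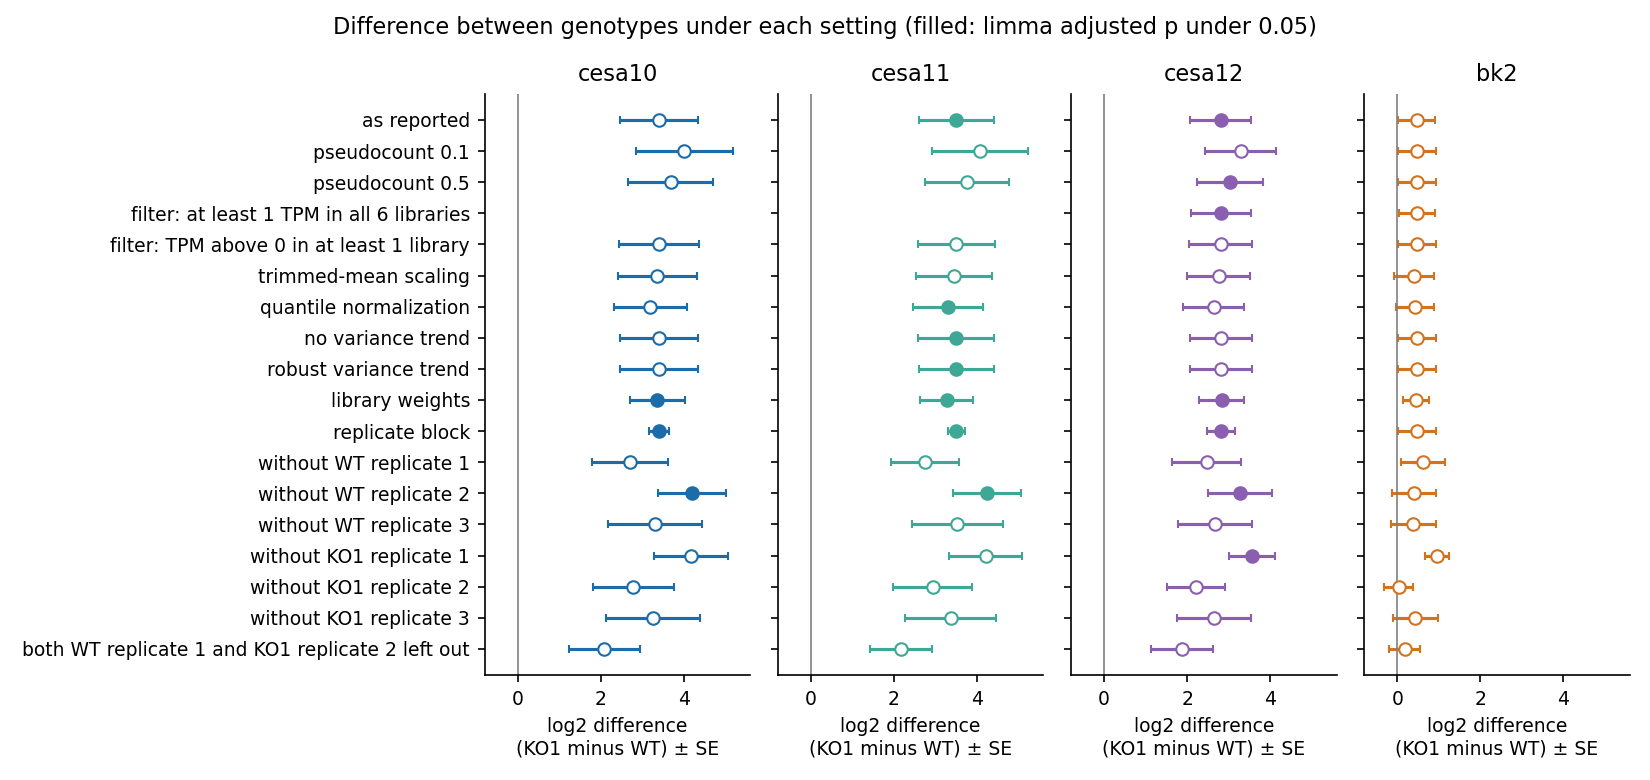
Log2 difference (KO1 minus WT, log2(TPM + 1) unless the pseudocount is named) with its standard error for each gene under each setting; filled markers have a limma adjusted p under 0.05. All points of the cellulose synthases lie to the right of 0, between 1.87 and 4.24, but many are open, and the points of bk2 lie between 0.03 and 0.95.

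The size of the difference was large among leaf transcripts, and so was the spread. Of all tested genes, 177 had a larger log2 difference towards KO1 than cesa11, 199 than cesa10 and 366 than cesa12. bk2 had 5523 genes above it. Within WT, the SD of log2(TPM + 1) was 1.5 for cesa10, 1.5 for cesa11 and 0.84 for cesa12, against a median of 0.24 over all tested genes. Within KO1 it was 1.40, 1.31 and 1.39 for cesa10, cesa11 and cesa12, against a median of 0.29. Only 385 tested genes varied more than cesa10 among WT libraries, and 365 among KO1 libraries. bk2 was ordinary in WT, with an SD of 0.26 at percentile 53.7 of tested genes, and variable in KO1, with an SD of 0.92 at percentile 93.7.

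In TPM the cellulose synthases ranged from among the weakly expressed to among the strongly expressed leaf genes, depending on the library. cesa10 ranked 21222 of 25403 genes above 0 TPM in WT replicate 1, and 1680 of 26924 in KO1 replicate 2. Among WT libraries alone its highest value was 22.9 times its lowest, and the same ratio was 23.2 for cesa11 and 5.14 for cesa12. Among KO1 libraries these ratios were 7.23 for cesa10, 6.22 for cesa11 and 7.36 for cesa12. bk2 differed by a factor of 1.39 among WT libraries and 3.64 among KO1 libraries, and stood between percentiles 83.0 and 95.9 of genes above 0 TPM in all 6 libraries.

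The 3 cellulose synthases put the 6 libraries in the same order. From lowest to highest it was WT replicate 1, WT replicate 3, WT replicate 2, KO1 replicate 1, KO1 replicate 3 and KO1 replicate 2. For bk2 the order was KO1 replicate 1, WT replicate 3, WT replicate 2, WT replicate 1, KO1 replicate 3 and KO1 replicate 2. On the log2(TPM + 1) scale, Pearson's r over the 6 libraries was 0.998 between cesa10 and cesa11, 0.986 between cesa10 and cesa12 and 0.980 between cesa11 and cesa12. With bk2 it was 0.589 for cesa10, 0.559 for cesa11 and 0.698 for cesa12. These are descriptions over 6 points that share the split between genotypes, with no test. After each genotype's mean was taken out, r was 0.993 between cesa10 and cesa11, 0.958 between cesa10 and cesa12 and 0.935 between cesa11 and cesa12. With bk2, r after that step was 0.507 for cesa10, 0.458 for cesa11 and 0.727 for cesa12. The joint variation of the cellulose synthases was thus present among libraries of the same genotype as well. With both genotypes pooled, bk2 varied with them less closely, but the genotypes differed in this. Among KO1 libraries bk2 had the same order as the cellulose synthases, whereas among WT libraries it was highest in replicate 1, where they were lowest.

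The subunits kept similar proportions in 5 of the 6 libraries. The 3 genes summed to 1.92, 26.33 and 7.38 TPM in WT replicates 1, 2 and 3. In KO1 replicates 1, 2 and 3 the sum was 36.67, 249.06 and 132.23 TPM. Every KO1 sum was above every WT sum, with a WT mean of 11.9 ± 12.8 TPM and a KO1 mean of 139 ± 106 TPM (SD, 3 libraries each; two-sided exact permutation p = 0.1, which is the floor for groups of this size). The difference of 127 TPM between the mean sums was 72.6 TPM without KO1 replicate 2 and 179 TPM without KO1 replicate 1. cesa10 made up 24.0%, 40.0% and 31.6% of the sum in WT replicates 1, 2 and 3 and 35.7%, 38.0% and 36.5% in KO1 replicates 1, 2 and 3. cesa11 made up 24.0%, 40.5% and 45.7% in WT and 45.7%, 41.9% and 42.9% in KO1. cesa12 made up 52.1%, 19.5% and 22.8% in WT and 18.6%, 20.1% and 20.6% in KO1. WT replicate 1 stood apart, with cesa12 as the largest share, in the library where the sum was only 1.92 TPM.

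**Figure D3:**
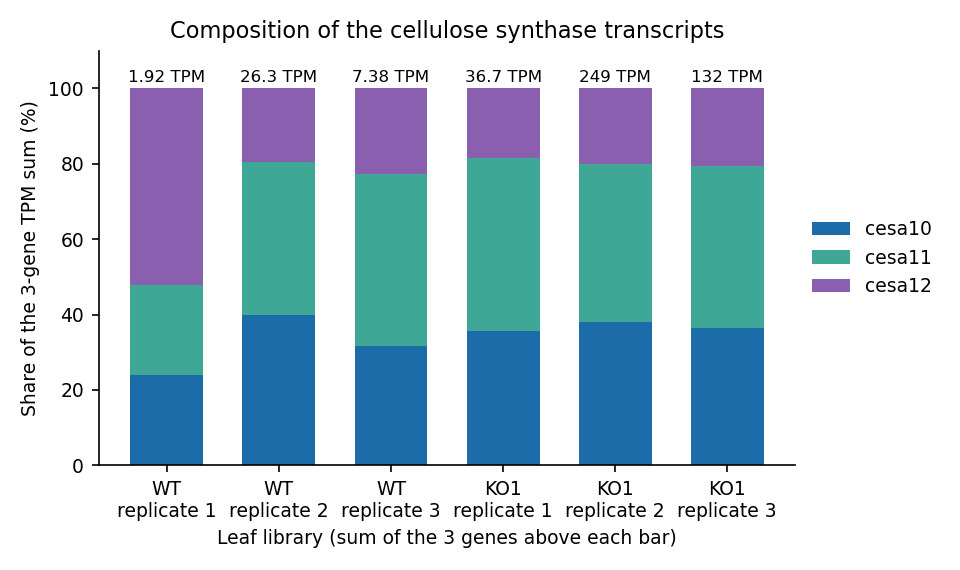
Share of cesa10, cesa11 and cesa12 in the TPM sum of the 3 genes in each library, in percent, with the sum above each bar. The 3 KO1 bars are nearly alike while their sums run from 36.67 to 249.06 TPM, and WT replicate 1, at 1.92 TPM, has a cesa12 share of 52.1%.

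The shares did not differ between genotypes beyond the spread among WT libraries. The mean share was 31.8% ± 8.02 in WT leaves and 36.7% ± 1.18 in KO1 for cesa10, and 36.7% ± 11.3 in WT and 43.5% ± 2.0 in KO1 for cesa11 (SD, n = 3 in both genotypes). For cesa12 it was 31.5% ± 17.9 in WT and 19.8% ± 1.08 in KO1. Exact two-sided permutation tests gave p = 0.4, 0.4 and 0.3 for cesa10, cesa11 and cesa12, and 0.4 for each after adjustment over the 3 shares. With 3 against 3 libraries, no such test can go below 0.1, so these p-values do not show that the proportions were equal. The differences in mean share were 4.89, 6.79 and -11.7 percentage points for cesa10, cesa11 and cesa12 (KO1 minus WT), and without WT replicate 1 they were 0.95, 0.42 and -1.37.

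TPM is scaled by transcript length, so the levels of the 4 genes can be set side by side. bk2 was the most abundant in every library. cesa11 was at or above cesa10 in all 6 libraries, the pair being equal in WT replicate 1, and its ratio to cesa10 ran from 1 to 1.45. The group means of cesa11, cesa10 and cesa12, in that order, differed from their neighbours by less than the larger SD of each pair, in both genotypes. The mean of bk2 exceeded that of cesa11 by more than the SD in WT, but not in KO1. These SDs are spreads between libraries that the genes share, so they do not judge differences between genes within a library. Within libraries, cesa12 over cesa10 was 0.520, 0.529 and 0.566 in KO1 replicates 1, 2 and 3. In WT replicates 1, 2 and 3 it was 2.17, 0.488 and 0.721.

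The gap between bk2 and the cellulose synthases was wider in WT than in KO1, although WT replicate 2 came near KO1 replicate 1. bk2 TPM per mean cellulose synthase TPM was 104, 5.63 and 19.5 in WT replicates 1, 2 and 3. It was 3.13, 1.67 and 1.81 in KO1 replicates 1, 2 and 3, and every KO1 library lay below every WT library. Its WT mean was 43.0 ± 53.3 and its KO1 mean 2.20 ± 0.80 (SD, 3 libraries each; two-sided exact permutation p = 0.1, again the floor). The ratio is taken within a library, so a common scaling factor cannot change it. Its denominator is the cellulose synthases and bk2 itself did not pass the test, so the ratio is not an independent result. The difference of -40.8 in this ratio (KO1 minus WT) was -10.3 without WT replicate 1, -59.6 without WT replicate 2 and -52.6 without WT replicate 3. In WT replicate 1 bk2 was at its highest WT level, 66.59 TPM, while cesa10 and cesa11 were each at 0.46 TPM. Transcripts of bk2 were therefore measured at a high level in a leaf library with hardly any cellulose synthase transcript of this group.

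**Figure D4:**
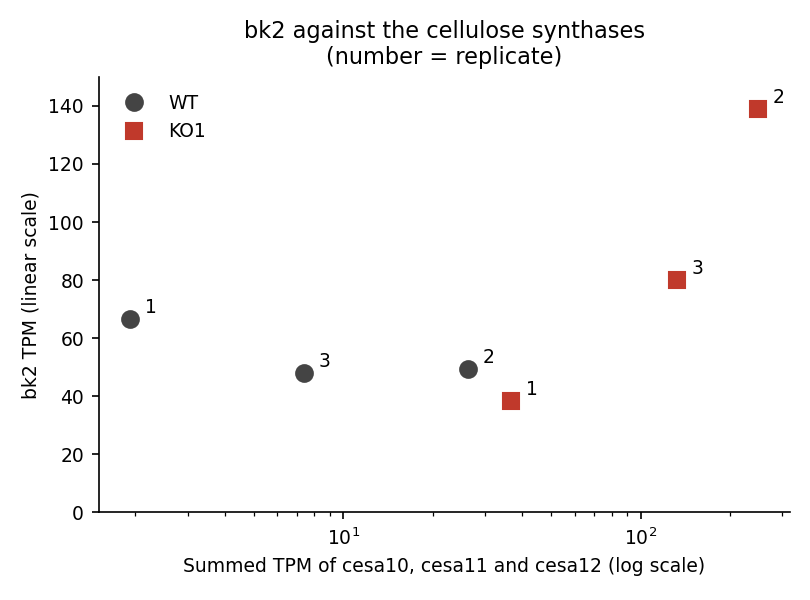
TPM of bk2 (linear axis) against the TPM sum of cesa10, cesa11 and cesa12 (log axis), 1 point per library, numbered by replicate. Among WT libraries the sum runs from 1.92 to 26.33 TPM with bk2 between 47.89 and 66.59 TPM, and among KO1 libraries bk2 is higher where the sum is higher.

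Genes with a profile like that of the cellulose synthases were numerous. Over the 6 libraries, 471 of 20986 other tested genes had a Pearson's r of at least 0.95 with the mean standardised profile of cesa10, cesa11 and cesa12, and 228 of these were called in the limma test, where 15.7% of all tested genes were called. That share follows in part from the choice of genes, since the profile itself separates the genotypes. The same minimum r with bk2 was met by 31 other genes, of which 0 were called by limma and 0 had an unadjusted p under 0.05. These counts too follow largely from the choice, since such genes closely track bk2, which did not pass the test. No gene met the minimum with both profiles, and none could. The r of bk2 with the cellulose synthases, 0.559 to 0.698, is too low for that. Ranked by r with cesa10, cesa11 stood at position 3 of 20989 genes and cesa12 at position 51, while bk2 stood at position 6266. Ranked by r with cesa12, cesa10 was at position 44 and cesa11 at position 79. Likeness over 6 libraries is coarse, since genes that differ between the genotypes resemble each other for that reason alone.

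The pair of genes with the highest mean r to all 4 members, among those with a mean of at least 5 TPM, are given by identifier only. Zm00001d024946 had a mean r of 0.920 over the 6 libraries, with 0, 2.59 and 0.69 TPM in WT replicates 1, 2 and 3 against 3.29, 52.51 and 17.32 TPM in KO1 replicates 1, 2 and 3. Zm00001d014967 had a mean r of 0.919, with WT levels of 10.42, 16.80 and 12.48 TPM and KO1 levels of 15.76, 36.07 and 25.79 TPM in the same order. Both resembled the cellulose synthases more than bk2. For Zm00001d024946, r was 0.972 to 0.994 with the cellulose synthases and 0.737 with bk2. For Zm00001d014967 it was 0.966 to 0.989 and 0.746. KO1 replicate 2 was the highest library for both, as for all 4 members. Neither passed the test (limma adjusted p = 0.065 and 0.113).

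Both gene families have further members that could share reads with these 4. The RefSeq list contains 10 other genes named as cellulose synthase A and 6 named as bk2-like. The sources used here do not say how the authors assigned reads that match several genes, and these relatives were not analysed here.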

How the data were processed

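RNA was isolated from leaves, and Illumina sequencing followed, per the labels' protocols. The authors deposited 1 table of TPM values for 6 libraries, rounded to 2 decimals, each library summing to 1000000 within rounding. The submitters' processing notes name RSEM, Bowtie2 and DESeq2 with no version or role. The genome build and annotation release are not stated in the sources used here. TPM keeps no sequencing depth, so depth is unknown and no counting interval is given. A rise in abundant transcripts lowers the TPM of all others.

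Groups came from the sample titles. The labels call the libraries biological replicates. Genes with at least 1 TPM in at least 3 libraries were tested with limma 3.58.1 (R 4.3.3) on log2(TPM + 1), which understates the change of low genes, two-sided, with genotype as the single term and the prior variance following mean level. P-values were adjusted by Benjamini-Hochberg across the 20990 tested genes and called under 0.05. Single values per library were compared by exact permutation tests (scipy 1.17.1). The procedure was tested on simulated data with independent noise for each gene, so that check does not cover variation shared among genes.

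The members, lists and tests were chosen with earlier results of these data known. The named genes are the 4 members and the pair most like them by mean Pearson's r. Lists of other wall genes and of cell type markers were set by name and not analysed, since 0 of 44320 identifiers matched the 49888 genes of the RefSeq list.

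Alternatives covered the pseudocount, filter, scaling (quantile, and a mean log ratio after trimming 30% of ratios and 5% of levels from either end), variance model, a replicate block, weights per library and left-out libraries. No sequence is printed.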

Additional observations from a re-analysis of the deposited data

How the results depend on the processing

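The cellulose synthase calls sit at the threshold, and small processing changes move them across it, while no direction changed for any of the 4 genes in any alternative. cesa11 lost its call (limma adjusted p in brackets) with a pseudocount of 0.1 (log2 difference 4.07, 0.062) or 0.5 (3.76, 0.051), with all genes above 0 TPM tested (3.50, 0.071) and under trimmed-mean scaling (3.45, 0.0503). cesa12 lost it with a pseudocount of 0.1 (3.29, 0.051), with all genes above 0 TPM tested (2.81, 0.076), under trimmed-mean scaling (2.76, 0.055) and quantile normalization (2.64, 0.055), and without a variance trend (2.81, 0.0514) or with a robust one (2.81, 0.0508). cesa10 passed with library weights (3.36, 0.012). In that fit WT replicate 3 had a weight of 8.53 and the other libraries had weights of 0.38 to 1.07, so the WT side rested mostly on a single library. Over all alternatives the adjusted p ran from 0.0068 to 0.206 for cesa10, from 0.0060 to 0.157 for cesa11, from 0.010 to 0.200 for cesa12 and from 0.108 to 0.959 for bk2. Without both WT replicate 1 and KO1 replicate 2, chosen after seeing the data, the differences of cesa11 and cesa12 were 2.17 and 1.87 (0.157 and 0.200), neither past the threshold. A filter of 1 TPM in all 6 libraries left cesa10 and cesa11 untested. The cause of these shifts was not tested.

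Leaving out each library gave log2 differences of 2.71 to 4.20 for cesa10, 2.74 to 4.24 for cesa11 and 2.21 to 3.57 for cesa12. The ratios of mean TPM without single libraries were added after seeing the data. The count of 3301 called genes was 778 to 2929 in those fits, 6838 with library weights and 1016 without the 2 libraries named above. The replicate numbers were not treated as pairs: deviations from group means correlated at -0.01, 0.09 and 0.02 between libraries of the same number, none over the set minimum of 0.1. With the replicate block cesa10 passed (3.40, SE 0.24, 0.0068), cesa11 and cesa12 kept their calls, bk2 did not pass, and the whole table gave 2806 calls. The cellulose synthases rose in the replicate order 1, 3, 2 in both genotypes, which the block removes. The highest correlation of deviations, 0.11, was between WT replicate 1 and KO1 replicate 3, so not every library matched its own number best. Trimmed-mean and quantile scaling moved the median difference of all tested genes from 0.05 to -0.02 and -0.09, small beside the cellulose synthase differences. Quantile scaling, which is not a common factor, changed the difference in bk2 per mean cellulose synthase TPM from -40.8 to -25.7.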
